A study of Rattus norvegicus with 32 samples.

Results

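Acetylcholine acts in the hippocampus through muscarinic and nicotinic receptors, and 9 genes of this system were described here by name: the muscarinic receptors Chrm1, Chrm2, Chrm3 and Chrm4, the nicotinic subunits Chrna4, Chrna7 and Chrnb2, the choline transporter Slc5a7 and acetylcholinesterase (Ache). Each symbol had 1 entry among the 32883 genes of both deposited count tables, and 9 of 9 passed the filter on low counts in each of the 14 comparisons. Bulk RNA of the hippocampus was sequenced from 32 Sprague-Dawley rats at an age of 65 days, 16 males (batch I) and 16 females (batch II), and each sex had 4 diet groups of 4 rats. IS rats came from dams on an iron-sufficient diet, and FID rats, formerly iron-deficient, from dams kept on an iron-deficient diet from early gestation until the end of the first week of life and on the iron-sufficient diet from then on. ISch and FIDch rats had the same iron histories, and their dams received extra choline during part of gestation. The study's methods describe these diets and the choice of a single male per litter for the males. For the females the series states the same design, and its labels call the iron-deficient groups ID and IDch, which are written FID and FIDch here.

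The muscarinic receptors couple to G proteins: Chrm1 and Chrm3 to Gq, which drives phospholipase C, and Chrm2 and Chrm4 to Gi, which inhibits adenylyl cyclase. Nicotinic receptors are ligand-gated cation channels of several subunits, with Chrna4 and Chrnb2 joining in the same receptors and Chrna7 able to form receptors alone. Most acetylcholine in the hippocampus is released by axons of the medial septum and diagonal band, whose terminals take choline back up through Slc5a7 after Ache has split the transmitter, so the cell bodies that transcribe Slc5a7 lie largely outside the tissue.

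Library totals were 3515806 to 9517503 counts in the males and 18439999 to 26616318 in the females, with medians of 8007907 and 21747536.5. Levels are CPM, the counts of a gene scaled by the TMM-normalized library total, computed within each sex. A count of 0 allows up to 3 counts, which is 0.315 to 0.839 CPM in a male library and 0.113 to 0.163 CPM in a female one, for counting error only. Some libraries stood apart from their groups. Male FIDch replicate 2 had the smallest total, and with male IS replicate 1 it lay at the ends of the first principal component of the male libraries, at -27.1 and 29.7. Male ISch replicates 1 and 2 and FIDch replicate 2 carry names of another form than the other males. Among the females, ISch replicate 1 was at 25.5 on the second component, against -4.3 to -7.8 in the other ISch rats, and FIDch replicate 4 was at -23.6, against 14.4 to 16.4 in the other FIDch rats. The first component of the female libraries ran from 5.8 to 25.8 in ISch and FIDch and from -7.9 to -22.8 in IS and FID. On it ISch replicate 1 was at 5.8, beside 7.6 to 12.4 in FIDch replicates 1 to 3, and FIDch replicate 4 at 21.7, within the 18 to 25.8 of the other ISch rats. The names of both libraries are numbered in the run of the other choline group. In a comparison chosen after seeing the data, each library was correlated with every other of its sex over the log2 values of all tested genes, centred by gene. In both sexes 13 of 16 libraries had their highest mean correlation with their own group. The male exceptions were IS replicate 3 (0.02 with FID, -0.12 with IS), FID replicate 2 (0.03 with IS, -0.02 with FID) and FIDch replicate 2 (0.05 with ISch, -0.07 with FIDch). The female exceptions were ISch replicate 1 (0.02 with FIDch, -0.03 with ISch), FIDch replicate 4 (0.07 with ISch, -0.04 with FIDch) and IS replicate 3 (0.05 with FID, 0.04 with IS). The labels were used as deposited, and whether these libraries were exchanged was not tested. Values without these libraries are given with some of the comparisons and not with all. For Chrna4 in female FIDch against FID only the range over the alternative fits is given.

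Summed CPM of the dentate gyrus list was 199 to 265 in males and 216 to 347 in females, that of the CA1 list 381 to 510 and 273 to 706, and that of the CA2 and CA3 list 254 to 304 and 247 to 347. The CA1 sums rested on the other genes of that list, since its gene Fibcd1, looked at after the values were seen, had 0 to 19 counts in the male libraries and 0 to 131 in the female ones. Of the 7 genes of the cholinergic neuron list some were near the limit of detection and others above it. Isl1, Lhx8 and Gbx1 had at most 3 counts in every library of both sexes, and Chat, which makes acetylcholine, in every male library and 0 to 9 counts in the female ones. Slc18a3 had 2 to 16 counts and Slc5a7 8 to 66.

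**Figure D1:**
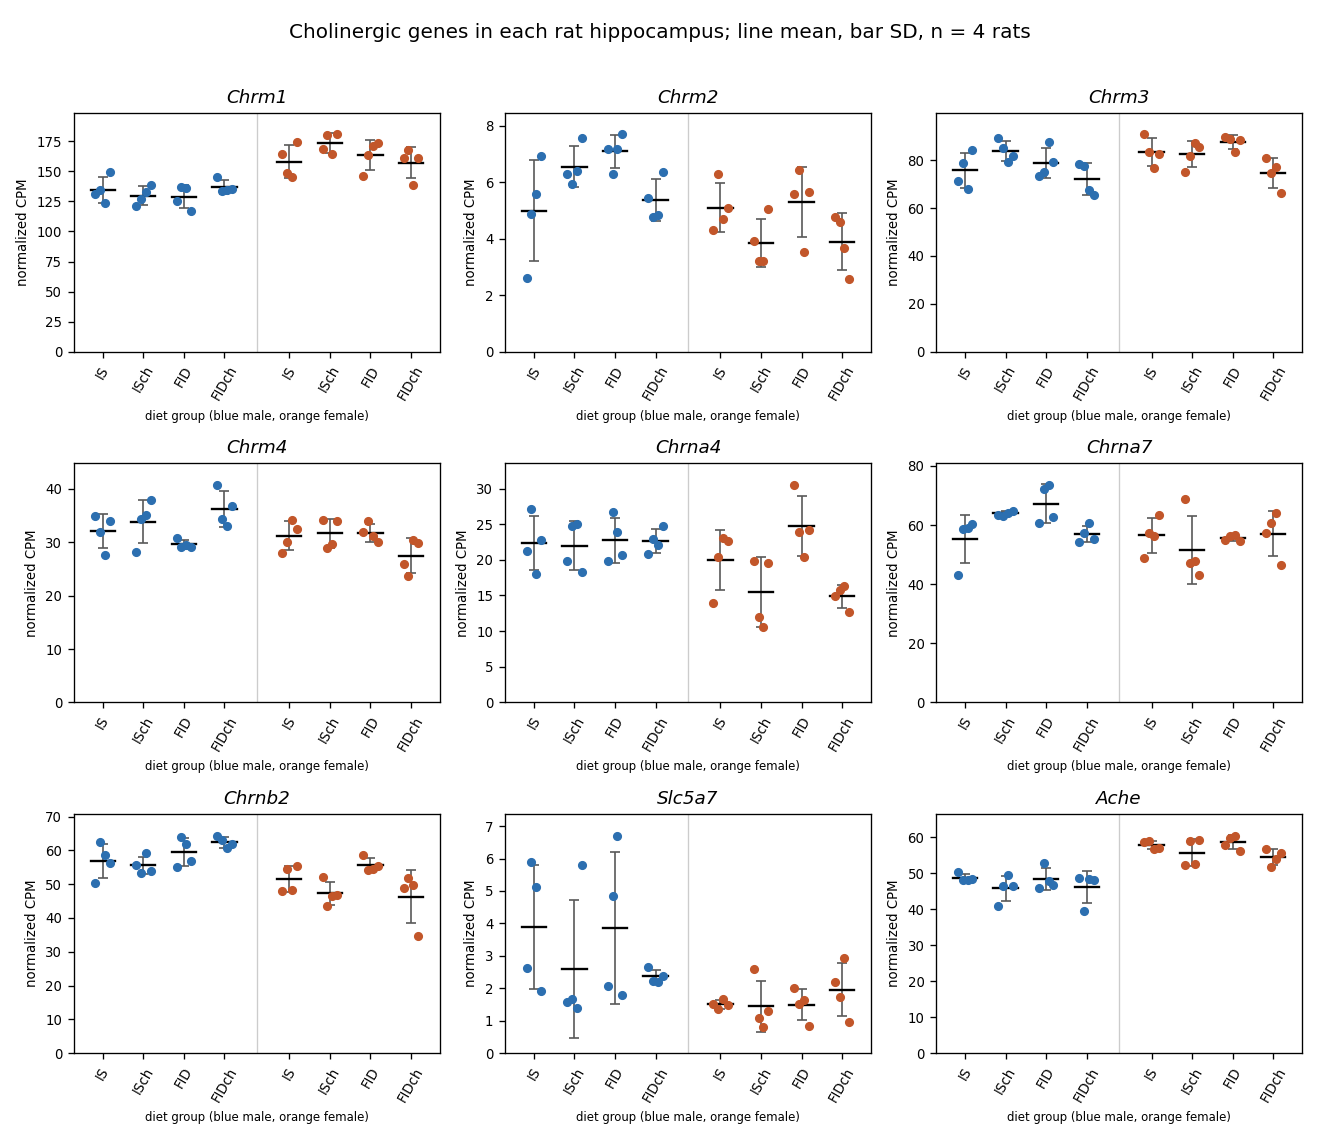
Normalized CPM of each of the 9 genes (y axis, from 0) in each rat, by diet group (x axis) and sex (blue male, orange female), with the group mean as a line and the SD as a bar, n = 4 rats. The female FIDch points of Chrna4, 12.6 to 16.3 CPM, all lie below the female FID points, 20.5 to 30.5 CPM.

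Among the Gq-coupled receptors, Chrm1 (ENSRNOG00000018385) was at 117 to 149 CPM in the males and 139 to 181 CPM in the females, and its group means spanned 129 to 137 CPM and 157 to 173 CPM. Chrm3 (ENSRNOG00000049410) was at 71.4, 78.9, 68.0 and 84.3 CPM in the male IS rats, 89.2, 84.9, 79.3 and 81.8 CPM in ISch, 73.5, 75.0, 87.6 and 79.4 CPM in FID and 78.6, 77.5, 67.4 and 65.3 CPM in FIDch. The male ISch rats were thus all above the FIDch rats and overlapped the other groups. In the females Chrm3 was at 90.8, 83.6, 76.7 and 82.4 CPM in IS, 75.0, 81.9, 87.1 and 85.7 CPM in ISch, 89.8, 89.0, 83.3 and 88.6 CPM in FID and 80.7, 74.8, 77.0 and 66.2 CPM in FIDch. Here the 4 FIDch rats lay below the 4 FID rats without overlap, and FIDch replicate 4 was the lowest of the 16.

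Of the Gi-coupled receptors, Chrm2 (ENSRNOG00000046972) had few counts, 17 to 72 per male library and 56 to 163 per female one. Its level was 2.62, 4.88, 5.57 and 6.92 CPM in the male IS rats, 6.29, 5.93, 6.40 and 7.58 CPM in ISch, 7.16, 6.30, 7.18 and 7.69 CPM in FID and 5.44, 4.76, 4.85 and 6.37 CPM in FIDch. In the females it was 4.29, 6.30, 4.70 and 5.09 CPM in IS, 3.91, 3.21, 3.23 and 5.04 CPM in ISch, 5.57, 6.44, 3.52 and 5.65 CPM in FID and 4.76, 4.59, 3.67 and 2.57 CPM in FIDch. The lowest male value was that of IS replicate 1, and every pair of groups that was tested overlapped. Chrm4 (ENSRNOG00000017556) was at 34.9, 32, 27.6 and 34.0 CPM in the male IS rats, 28.2, 34.3, 35.1 and 37.9 CPM in ISch, 30.9, 29.1, 29.5 and 29.1 CPM in FID and 40.7, 34.4, 33.1 and 36.9 CPM in FIDch. The male FIDch rats were all above the FID rats. The female rats had 28.0, 30.0, 34.2 and 32.5 CPM of Chrm4 in IS, 34.1, 28.9, 29.6 and 34.0 CPM in ISch, 31.9, 34.0, 31.2 and 30.0 CPM in FID and 26.0, 23.7, 30.5 and 29.8 CPM in FIDch, where the FIDch rats were low and 1 of them, replicate 3, reached into the range of FID.

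The nicotinic subunit Chrna4 (ENSRNOG00000011202) was at 21.3, 27.1, 18.1 and 22.8 CPM in the male IS rats, 19.8, 24.7, 25.1 and 18.3 CPM in ISch, 19.8, 26.7, 23.9 and 20.7 CPM in FID and 20.8, 22.9, 22.1 and 24.7 CPM in FIDch. Its male groups lay over each other, with means of 22.0 to 22.8 CPM. Female Chrna4 spread more, at 13.9, 20.3, 23.1 and 22.6 CPM in IS, 19.9, 12, 10.6 and 19.6 CPM in ISch, 30.5, 23.9, 20.5 and 24.2 CPM in FID and 14.9, 15.8, 16.3 and 12.6 CPM in FIDch. The 4 FIDch rats were below the 4 FID rats, and the ISch rats fell into a low and a high pair. Chrnb2 (ENSRNOG00000020778), its partner subunit, was at 50.3 to 64.4 CPM in the males, with means of 55.5 to 62.5 CPM. In the females Chrnb2 was at 48.0, 54.4, 48.1 and 55.2 CPM in IS, 52.1, 43.7, 46.5 and 46.7 CPM in ISch, 58.6, 54.2, 54.4 and 55.4 CPM in FID and 48.9, 51.9, 49.7 and 34.6 CPM in FIDch. Again FIDch lay below FID without overlap, and FIDch replicate 4 was far below the other rats of its group.

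Chrna7 (ENSRNOG00000010853) was at 43.1, 58.7, 58.9 and 60.2 CPM in the male IS rats, 63.4, 63.1, 64.2 and 64.9 CPM in ISch, 60.6, 72.0, 73.6 and 62.6 CPM in FID and 54.4, 57.4, 60.7 and 55.4 CPM in FIDch. The ISch and FID rats were all above the IS rats, of which replicate 1 was the lowest. Female Chrna7 was at 49.0, 57.5, 56.1 and 63.4 CPM in IS, 68.7, 47.2, 47.7 and 43.1 CPM in ISch, 55.1, 56.2, 56.6 and 54.7 CPM in FID and 57.3, 60.8, 63.9 and 46.4 CPM in FIDch, so that the females showed no separation of groups and ISch replicate 1 was the highest of the 16.

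The transporter Slc5a7 (ENSRNOG00000010597) was at 2.62, 5.88, 5.12 and 1.91 CPM in the male IS rats, 1.57, 1.66, 1.38 and 5.79 CPM in ISch, 2.07, 4.83, 6.71 and 1.80 CPM in FID and 2.66, 2.24, 2.21 and 2.37 CPM in FIDch. A few male rats were high in IS, ISch and FID and none in FIDch, on 8 to 57 counts per library. In the females it ranged from 0.793 to 2.92 CPM on 15 to 66 counts. Ache (ENSRNOG00000050841), the esterase, had group means of 45.8 to 48.7 CPM in the males and 54.5 to 58.6 CPM in the females, over single rats at 39.5 to 52.8 CPM and 51.8 to 60.4 CPM. Ordered by mean, neighbouring groups of the same sex overlapped in 53 of the 54 neighbouring pairs of the 9 genes, and the exception was male Chrna7, with ISch above FIDch. Among these neighbours the groups lay apart in 1 of 27 pairs in males, against 1.55% of the neighbouring pairs of all 14314 genes, and in 0 of 27 in females, against 2.54% of those of all 14975 genes. Groups further apart in the order of means are not in these counts.

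Comparisons were fitted with edgeR's quasi-likelihood test over all genes that passed the filter. The study's criterion is an absolute log2 fold change over 0.2 with an unadjusted p under 0.05, and Benjamini-Hochberg adjusted p-values over all genes tested are given beside it. The share of all genes that met the same rule is the background for each count of the 9 genes. The comparisons with IS share the IS rats, and FIDch against FID shares its groups with them. For single genes, CPM was also compared by a 2-sided exact permutation test, whose smallest p with 4 rats against 4 is 0.029.

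In iron-sufficient males, prenatal choline (ISch against IS) left 0 of 9 genes at the criterion, which 8.06% of 13956 genes met, and 0 of 9 with an adjusted p under 0.05, against 0.208% of genes. In edgeR 0 of the 9 had an unadjusted p under 0.05, and the likelihood ratio test and DESeq2 also gave 0 at the criterion. Chrna7 came nearest: the 4 ISch rats, at 63.9 ± 0.813 CPM (SD, n = 4), were above the 4 IS rats, at 55.2 ± 8.10 CPM. Its log2 fold change was 0.21 (SE 0.10), with an unadjusted p of 0.0524 and an adjusted p of 0.48 in edgeR, and the exact permutation test gave 0.029. For Chrna7, IS replicate 1 was at 43.1 CPM, with the other IS rats at 58.7 to 60.2 CPM. Chrna7 met the criterion in fits that kept this rat and left out IS replicate 2, 3 or 4, at log2 fold changes of 0.24, 0.25 and 0.25. Chrm2 met it without IS replicate 4 (0.60) and Slc5a7 without ISch replicate 4 (-1.32).

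Early iron deficiency in males (FID against IS) came with higher values of 1 nicotinic and 1 muscarinic gene. At the criterion were 2 of 9 genes, against 4.62% of 13851 genes, both higher in FID: Chrm2 by 0.51 on the log2 scale (SE 0.23) and Chrna7 by 0.28 (SE 0.11). In bulk tissue such a difference in the number of cells of a type and one in RNA per cell cannot be told apart. Chrna7 was at 67.2 ± 6.56 CPM (SD, n = 4) in FID and Chrm2 at 7.08 ± 0.575 CPM against 5.0 ± 1.80 CPM in IS. The unadjusted p was 0.048 for Chrm2 and 0.0246 for Chrna7, and the adjusted p 0.786 for both in edgeR. Exact permutation tests gave 0.057 and 0.029. No gene passed the adjustment (0% of genes, 0 of 9): edgeR's quasi-likelihood test found 787 genes at an unadjusted p under 0.05 and 0 after adjustment, its likelihood ratio test 7 and DESeq2 2, with 0 of the 9 among them. Single libraries decided both calls. Without IS replicate 1 Chrm2 was at 0.28 (p 0.131) and Chrna7 at 0.18 (p 0.0525). Chrna7 was also lost without FID replicate 2 (0.25, p 0.0587) and replicate 3 (0.24, p 0.0769), and Chrm2 without IS replicate 2 (0.50, p 0.086) and FID replicates 1 (0.51, p 0.0782), 3 (0.50, p 0.0826) and 4 (0.47, p 0.0964).

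Male FIDch rats compared with IS had 0 of 9 genes at the criterion, against 6.12% of 13693 genes, and 0 of 9 with an adjusted p under 0.05, against 0.131%. In edgeR's quasi-likelihood test 0 of the 9 had an unadjusted p under 0.05, with 1 of 9 at the criterion by the likelihood ratio test and 0 by DESeq2. The transporter Slc5a7 was that gene, at 2.37 ± 0.205 CPM against 3.88 ± 1.92 CPM (SD, n = 4), with a log2 fold change of -0.69 (SE 0.33), an unadjusted p of 0.0585 and an adjusted p of 0.638 in edgeR. Without IS replicate 1 or 4 its fold change was -0.85 or -0.91 and met the criterion, as did Chrm4 (0.22) without IS replicate 1.

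Prenatal choline in formerly iron-deficient males (FIDch against FID) came with a higher level of the Gi-coupled receptor Chrm4 and lower levels of Chrm2 and Chrna7. These 3 of 9 genes were at the criterion, against 13.0% of 13945 genes, and 0 of 9 had an adjusted p under 0.05, against 1.28%. At an unadjusted p under 0.05 edgeR gave 3 of the 9, and the likelihood ratio test and DESeq2 also gave 0 after adjustment. At the criterion the likelihood ratio test gave 3 of the 9 and DESeq2 2. Chrm4 was at 36.3 ± 3.36 CPM in FIDch and 29.6 ± 0.835 CPM in FID (SD, n = 4), higher in 4 of 4 rats than in any FID rat. Its log2 fold change was 0.29 (SE 0.08) with an adjusted p of 0.098 in edgeR, and the exact permutation test gave 0.029. Chrna7 was at 57.0 ± 2.77 CPM in FIDch, a log2 fold change of -0.24 (SE 0.08) with an adjusted p of 0.132 in edgeR, and Chrm2 at 5.36 ± 0.740 CPM, a log2 fold change of -0.40 (SE 0.15) with an adjusted p of 0.205. Exact permutation tests gave 0.057 for each, and 3 of 4 FIDch rats were below the FID range. The Chrm2 call was lost without FID replicate 4 (-0.35, p 0.0576) or FIDch replicate 3 (-0.33, p 0.0773), and Slc5a7 met the criterion without FID replicate 1 (-0.91) or 4 (-0.95).

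Calls in separate comparisons do not show that the effect of choline differed between iron-sufficient and formerly iron-deficient males. The difference itself was tested in a fit of the 4 male groups. At the criterion were 3 of 9 genes, against 14.4% of 14314 genes, all lower in the iron-by-choline term, and 0 of 9 had an adjusted p under 0.05, against 0.00699% of genes. The unadjusted count was also 3 of 9 in edgeR, and the likelihood ratio test and DESeq2 gave 0 after adjustment. For the nicotinic Chrna7 the effect of choline was 0.44 lower on the log2 scale after iron deficiency than without it (log2 value -0.44, SE 0.13, adjusted p 0.173 in edgeR). For Chrm2 the term was -0.79 (SE 0.28, adjusted p 0.224) and for Chrm3 -0.27 (SE 0.11, adjusted p 0.268). Male IS replicate 1 was the lowest IS rat for Chrna7, at 43.1 CPM, and for Chrm2, at 2.62 CPM. The terms of Chrna7 and Chrm2 without this rat are not given. Chrm3 lost its call without IS replicate 3 (-0.23), ISch replicate 1 (-0.25), FID replicate 3 (-0.22), FIDch replicate 3 (-0.24) or FIDch replicate 4 (-0.23), at unadjusted p-values of 0.0508 to 0.07. It was also lost without the 3 libraries whose names have another form, a fit chosen after seeing the data (-0.25, p 0.0739). Chrm4 met the criterion without IS replicate 3 (0.29).

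In iron-sufficient females, prenatal choline (ISch against IS) brought 1 of 9 genes to the criterion, against 10.3% of 14466 genes, and 0 of 9 to an adjusted p under 0.05, against 2.54%. edgeR had 1 of the 9 at an unadjusted p under 0.05, and the likelihood ratio test and DESeq2 also gave 0 after adjustment. The gene was Chrm2, at 3.85 ± 0.859 CPM in ISch and 5.09 ± 0.867 CPM in IS (SD, n = 4), with a log2 fold change of -0.41 (SE 0.18) and an adjusted p of 0.287 in edgeR. The exact permutation test gave 0.086, and the groups overlapped. This call was lost without IS replicate 2 (-0.29), 3 (-0.44) or 4 (-0.41) and without ISch replicate 1 (-0.42), 2 (-0.33) or 3 (-0.33). Leaving out ISch replicate 1, which stood apart, brought the nicotinic Chrna4 (-0.51) and Chrna7 (-0.30) to the criterion in its place, where all 8 rats gave -0.37 and -0.13. Chrna4 also met it without IS replicate 1 (-0.50).

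Early iron deficiency in females (FID against IS) gave 0 of 9 genes at the criterion, against 6.47% of 14632 genes, and 0 of 9 with an adjusted p under 0.05, against 0.191%. In edgeR 0 of the 9 had an unadjusted p under 0.05, with 0 at the criterion by the likelihood ratio test and 1 by DESeq2. That gene was Chrna4, at 24.8 ± 4.19 CPM in FID and 20 ± 4.21 CPM in IS (SD, n = 4), with a log2 fold change of 0.31, an unadjusted p of 0.0606 in edgeR and overlapping groups. It met the criterion without IS replicate 3 (0.38) or 4 (0.37) or FID replicate 3 (0.39).

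Female FIDch rats compared with IS had 1 of 9 genes at the criterion, against 8.98% of 14662 genes, and 0 of 9 with an adjusted p under 0.05, against 0.907%. edgeR gave 2 of the 9 at an unadjusted p under 0.05, and the likelihood ratio test and DESeq2 also gave 0 after adjustment. The gene at the criterion was Chrna4, at 14.9 ± 1.61 CPM in FIDch (SD, n = 4), with a log2 fold change of -0.42 (SE 0.15) and an adjusted p of 0.254. It overlapped IS through IS replicate 1, and the exact permutation test gave 0.11. Further genes met the criterion when a library was left out: Chrm4 without IS replicate 1 (-0.23), FIDch replicate 3 (-0.24) or FIDch replicate 4 (-0.23), Chrm2 without FIDch replicate 1 (-0.49), and Slc5a7 without FIDch replicate 4 (0.60).

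Prenatal choline in formerly iron-deficient females (FIDch against FID) came with the lowest values of several receptors, and the nicotinic subunit Chrna4 fell. It was at 14.9 ± 1.61 CPM in FIDch and 24.8 ± 4.19 CPM in FID (SD, n = 4), and 4 of 4 FIDch rats were below every FID rat. The log2 fold change was -0.73 (SE 0.12), with an unadjusted p of 8.26e-05 and an adjusted p of 0.0144 in edgeR, and the exact permutation test gave 0.029. At the criterion were 4 of 9 genes, all lower, against 12.7% of 14680 genes, and 1 of 9 had an adjusted p under 0.05, against 2.28%. The likelihood ratio test and DESeq2 each gave 2 of 9 after adjustment, Chrna4 and Chrm3, against 5.12% and 5.56% of all genes. Its partner subunit Chrnb2 was at 46.3 ± 7.89 CPM against 55.6 ± 2.01 CPM, a log2 fold change of -0.27 (SE 0.10) with an adjusted p of 0.21 in edgeR. The muscarinic Chrm3 was at 74.7 ± 6.13 CPM against 87.7 ± 2.95 CPM, a log2 fold change of -0.23 (SE 0.06) with an adjusted p of 0.0792. Chrm4 was at 27.5 ± 3.22 CPM against 31.8 ± 1.67 CPM, a log2 fold change of -0.21 (SE 0.09) with an adjusted p of 0.226. Exact permutation tests gave 0.029 for Chrnb2 and Chrm3 and 0.057 for Chrm4. The median log2 fold change of the 9 genes was -0.21, and in the 14 comparisons that of all genes tested lay between -0.02 and 0.01.

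The fall of Chrna4 passed the adjusted threshold in 16 of 16 alternative fits, with log2 fold changes from -0.81 to -0.62 and adjusted p-values from 3.81e-06 to 0.0468. The other calls of this comparison were each lost when some single library was left out. Chrm3 missed only the fold limit, at -0.18 without FIDch replicate 4. Its adjusted p in that edgeR fit was 0.0481, against 0.0792 with all libraries. Chrnb2 was lost without FID replicate 1 (-0.24, p 0.0686), FID replicate 4 (-0.27, p 0.0515) or FIDch replicate 4 (-0.15, p 0.011). Chrm4 was lost without FID replicate 1 (-0.21), 2 (-0.17) or 3 (-0.21) and FIDch replicate 1 (-0.18) or 2 (-0.14), at unadjusted p-values of 0.0535 to 0.0965. Chrm2 met the criterion without FID replicate 3 (-0.58) or FIDch replicate 1 (-0.55). In the fit of the 4 female groups, 1 of 9 genes met the criterion for the iron-by-choline term, against 7.33% of 14975 genes, and 0 of 9 had an adjusted p under 0.05, against 0.00668%. The unadjusted count was 1 of 9 in edgeR, and the likelihood ratio test and DESeq2 gave 0 after adjustment. The gene was Chrm3, at -0.21 (SE 0.09, adjusted p 0.491 in edgeR), whose call was lost without IS replicate 3 (-0.18), ISch replicate 3 (-0.18), ISch replicate 4 (-0.19) or FIDch replicate 4 (-0.16). For Chrna4 this term was -0.37 (SE 0.27, unadjusted p 0.192 in edgeR), so the effect of choline in FID was not shown to differ from that in IS. Chrna7 met the criterion without ISch replicate 1 (0.34), Chrm1 without IS replicate 4 (-0.24), FID replicate 1 (-0.24) or FIDch replicate 2 (-0.22), and Chrm4 without IS replicate 3 (-0.28), ISch replicate 2 (-0.27), FIDch replicate 3 (-0.28) or FIDch replicate 4 (-0.28). Without both ISch replicate 1 and FIDch replicate 4, a fit chosen after seeing the data, 3 of the 9 met it.

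**Figure D2:**
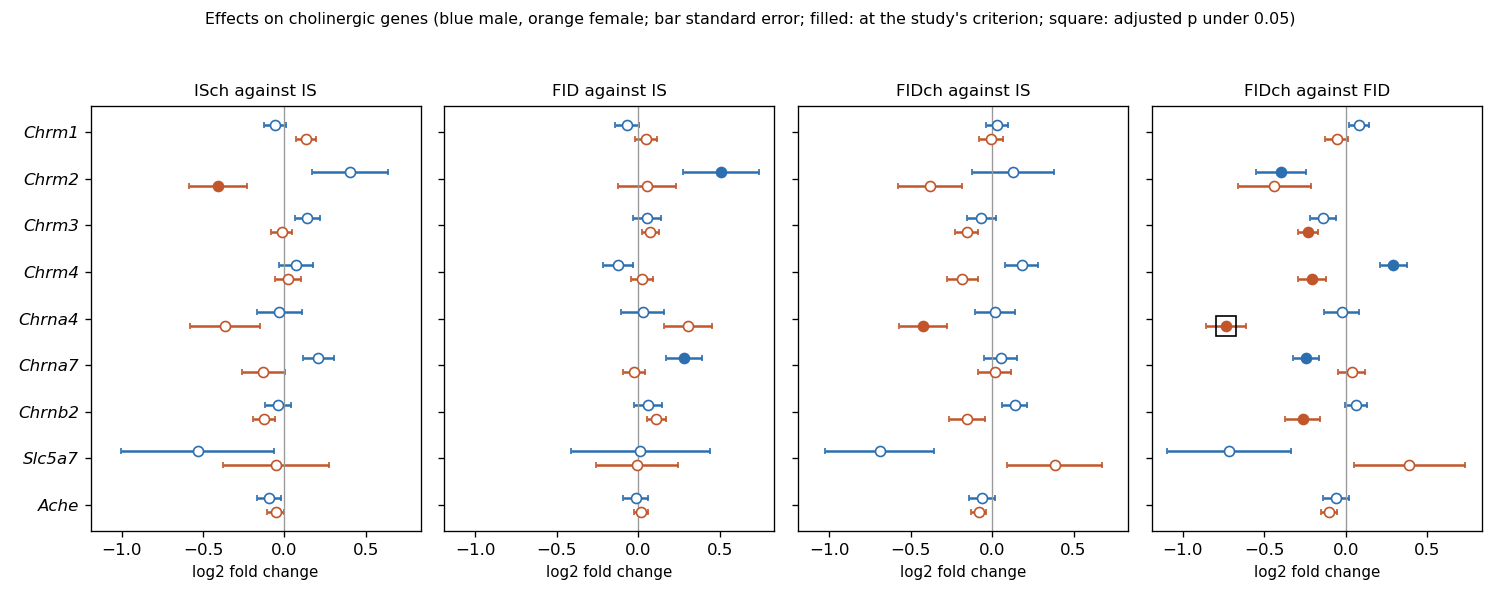
Log2 fold change of each of the 9 genes (points, with bars of 1 SE) in the comparisons within each sex, blue male and orange female. With all libraries, Chrna4 in female FIDch against FID, at -0.73, has the only adjusted p under 0.05 within a sex by edgeR's quasi-likelihood test. The likelihood ratio test and DESeq2 each gave 2 of the 9 genes in that comparison.

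Because the genes that were lower in female FIDch than in FID included both subunits of one receptor type and the receptor Chrm4 that was higher in the males, the promoters of Chrna4, Chrnb2 and Chrm4 are shown, from 250 bases before to 50 bases after the start of the gene. They were taken from RefSeq's annotation of assembly GRCr8, which held 9 of the 9 genes, whereas the counts were made on Rnor_6.0. Chrna4 lies at chr3:188534477-188534776 on the minus strand, Chrnb2 at chr2:177487257-177487556 on the minus strand and Chrm4 at chr3:98348830-98349129 on the plus strand. Capitals mark the GC box GGGCGG and its complement CCGCCC, searched on both strands.
Chrna4: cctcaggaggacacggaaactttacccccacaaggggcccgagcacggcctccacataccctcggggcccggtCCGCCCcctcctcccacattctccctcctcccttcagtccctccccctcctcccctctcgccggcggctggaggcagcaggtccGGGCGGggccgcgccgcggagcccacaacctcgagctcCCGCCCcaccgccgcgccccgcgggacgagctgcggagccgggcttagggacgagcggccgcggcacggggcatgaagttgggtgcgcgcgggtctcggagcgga
Chrnb2: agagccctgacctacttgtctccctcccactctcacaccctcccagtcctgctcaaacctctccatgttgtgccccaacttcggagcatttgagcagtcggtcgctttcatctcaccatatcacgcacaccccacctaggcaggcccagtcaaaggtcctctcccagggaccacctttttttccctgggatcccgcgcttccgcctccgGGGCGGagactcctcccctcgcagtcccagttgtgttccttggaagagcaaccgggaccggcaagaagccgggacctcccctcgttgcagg
Chrm4: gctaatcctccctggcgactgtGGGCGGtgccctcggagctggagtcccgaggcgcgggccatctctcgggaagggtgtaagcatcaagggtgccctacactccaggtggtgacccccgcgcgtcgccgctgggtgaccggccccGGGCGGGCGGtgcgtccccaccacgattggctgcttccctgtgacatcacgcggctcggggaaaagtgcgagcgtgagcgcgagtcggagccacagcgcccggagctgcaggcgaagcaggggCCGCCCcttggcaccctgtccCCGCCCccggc
The GC box occurred 3 times in the promoter of Chrna4, 1 time in that of Chrnb2 and 5 times in that of Chrm4, where 2 of the matches overlap. Of 33469 promoters of this length 33.1% held it, and of the 9 genes 8 did, all but Chrm1. TATAAA was found in 14.2% of promoters and among the 9 in that of Slc5a7 alone, CCAAT in 37.5% and in those of Ache, Chrm4 and Slc5a7, and TGACGTCA, the cAMP response element, in 1.83% and in 0 of the 9. The GC content was 74.7% for Chrna4, 61% for Chrnb2 and 72% for Chrm4, and the median of all promoters was 51.7%. A match is a description of the letters and not a sign of binding.

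The effect of choline after iron deficiency was then compared between the sexes, in a fit with a sex-by-diet term. Males and females were sequenced in different batches and to different depths, so a difference of sex and one of batch cannot be told apart. Chrm4 was higher in male FIDch than in FID by 0.29 and lower in the females at -0.21, and the effects differed by -0.52 (female minus male, SE 0.12, adjusted p 0.03 in edgeR). Chrna4 was at -0.02 in the males and -0.73 in the females, a difference of -0.73 (SE 0.17, adjusted p 0.03). With Chrnb2 (-0.35, SE 0.13) and Chrna7 (0.26, SE 0.12), 4 of 9 genes were at the criterion, against 17.7% of 15143 genes, and 2 of 9 had an adjusted p under 0.05, against 2.88%.

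Both adjusted calls depended on single libraries, and their log2 differences stayed between -0.57 and -0.45 for Chrm4 and between -0.82 and -0.61 for Chrna4. For Chrm4 the adjusted p in edgeR was 0.0628 without male FID replicate 4, 0.0809 without male FIDch replicate 1, 0.0615 without male FIDch replicate 4, 0.0517, 0.0786 and 0.071 without female FID replicates 1, 2 and 3, and 0.0765 and 0.0506 without female FIDch replicates 1 and 2. For Chrna4 it was 0.0553 and 0.0677 without male FID replicates 1 and 4, 0.054 and 0.0716 without male FIDch replicates 1 and 4, 0.0505, 0.0519 and 0.0511 without female FID replicates 1, 2 and 4, and 0.0637 without female FIDch replicate 1. Each stayed under 0.05 in 11 of 19 alternative fits, with adjusted p-values from 0.008 to 0.0809 for Chrm4 and from 0.00569 to 0.0716 for Chrna4. The Chrna7 difference lost the criterion without any of 8 libraries (male FID replicates 2 and 3, male FIDch replicates 1, 2 and 4, female FID replicate 1, female FIDch replicates 2 and 3), at log2 differences of 0.20 to 0.26. Without female FIDch replicate 4 it was 0.35, with an adjusted p of 0.0399 in edgeR. Slc5a7 (1.08 with all libraries) met the criterion without male FID replicate 1 (1.27), male FID replicate 4 (1.32), female FID replicate 1 (1.26) or female FIDch replicate 4 (1.30), and Chrm1 (-0.16) without female FID replicate 1 (-0.21).

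**Figure D3:**
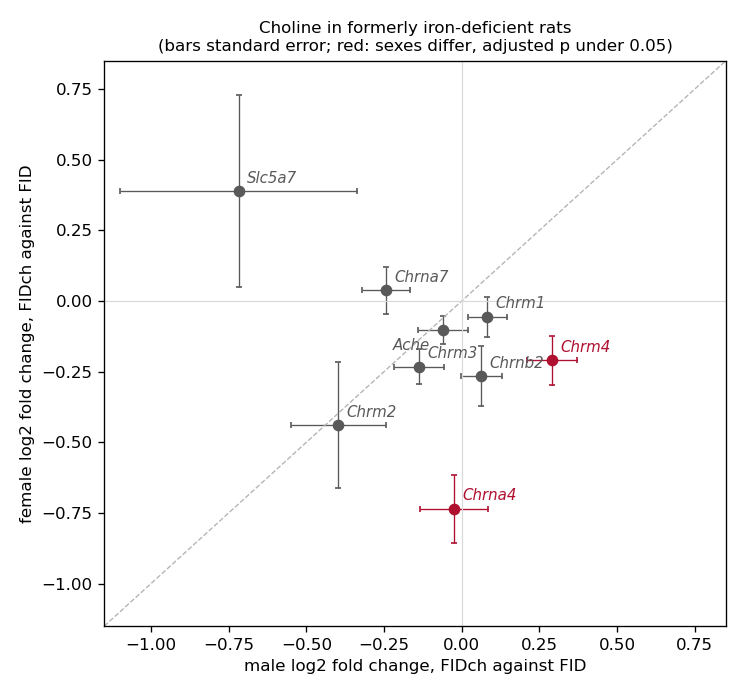
Log2 fold change of FIDch against FID in males (x axis) and in females (y axis) for the 9 genes, with bars of 1 SE and a dashed line of equal effects. Chrm4 lies at 0.29 in males and -0.21 in females, and Chrna4 at -0.02 and -0.73.

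The other differences between the sexes were smaller in number. For ISch against IS, 1 of 9 genes met the criterion, against 14.2% of 15141 genes, and 0 of 9 the adjusted threshold, against 1.28%. It was Chrm2, higher by 0.40 in male ISch and lower at -0.41 in female ISch, a difference of -0.81 (SE 0.31, adjusted p 0.214 in edgeR). For FID against IS, 1 of 9 genes met the criterion, against 7.64% of 15138 genes, and 0 of 9 the adjusted threshold, against 0.0396%. That was Chrna7 at -0.32 (SE 0.14, adjusted p 0.552), a call lost without male IS replicate 1 (-0.20), male FID replicate 2 (-0.29), male FID replicate 3 (-0.26) or female IS replicate 4 (-0.26). For FIDch against IS, 3 of 9 genes met the criterion, against 12.9% of 15177 genes, and 0 of 9 the adjusted threshold, against 0.362%. They were Slc5a7 at 1.08 (SE 0.47), Chrna4 at -0.44 (SE 0.20) and Chrm4 at -0.36 (SE 0.14), with adjusted p-values of 0.311, 0.349 and 0.268.

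In these 3 tests edgeR gave 1, 1 and 3 of the 9 at an unadjusted p under 0.05 and the likelihood ratio test 0 after adjustment. Single libraries again moved the calls of FIDch against IS. Chrm4 lost its call without male IS replicate 3 (-0.29) or male FIDch replicate 1 (-0.30). Slc5a7 lost it without male IS replicate 2 (0.81) or 3 (0.93), male FIDch replicate 3 (1.04), female IS replicate 2 (1.03), or female FIDch replicate 1 (1.02) or 3 (0.83). Chrna4 lost it without any of 11 libraries (male IS replicates 1, 3 and 4, male FIDch replicates 2, 3 and 4, female IS replicates 2, 3 and 4, female FIDch replicates 1 and 4), at log2 differences of -0.45 to -0.35. Chrnb2, at -0.29 with all libraries, met it without male IS replicate 2 (-0.34), female IS replicate 1 (-0.32) or 3 (-0.32), or female FIDch replicate 2 (-0.34) or 3 (-0.32). For ISch against IS, Chrna7 met it without female ISch replicate 1 (-0.51, adjusted p 0.0482 in edgeR) or female IS replicate 1 (-0.40), Chrm1 without male IS replicate 3 (0.23), male ISch replicate 4 (0.21) or female IS replicate 4 (0.24), Chrm3 without male IS replicate 4 (-0.22) and Slc5a7 without male ISch replicate 4 (1.27), where all libraries gave -0.34, 0.19, -0.16 and 0.50. Over the 14 comparisons Chrm1 and Ache met the criterion in 0, at log2 values of -0.19 to 0.19 and -0.10 to 0.05. The lowest adjusted p-values were 0.324 and 0.302 in edgeR, and each gene had an unadjusted p under 0.05 in 0 of the 14 comparisons.

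Other genes of the cholinergic system were read from a list of 26, of which 25 had an entry and 14 to 18 passed the filter. In female FIDch against FID, 3 of 17 were lower at the criterion and 0 higher, against 12.7% of all genes, with a list median of -0.12. Ly6h, which encodes a protein that binds nicotinic receptors, fell (-0.30, SE 0.06, adjusted p 0.0328 in edgeR). The accessory subunit Chrna5, which joins receptors of Chrna4 and Chrnb2, was at -0.87 (SE 0.20, adjusted p 0.0514), and Lypd6, another modulator of nicotinic receptors, at -0.28 (adjusted p 0.0909). Ly6h also differed between the sexes in this effect (-0.43, SE 0.10, adjusted p 0.03). In female ISch against IS, 4 of 16 were lower at the criterion and 0 higher, against 10.3% of all genes: Chrna2 (-0.48), Lypd6 (-0.33), the receptor chaperone Tmem35a (-0.31) and Ly6h. Female FID against IS had 2 of 17 higher (6.47% of all genes), Chrna5 (0.57) and Lypd1 (0.34), and female FIDch against IS 3 of 17 (8.98% of all genes), with Lypd1 higher (0.51) and Chrna2 (-0.42) and Chrm5 (-0.41) lower.

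In the males 1 of 15 genes of the list met the criterion in ISch against IS (8.06% of all genes), the subunit Chrnb4 (1.15), with 5 to 21 counts in those libraries, and 0 of 14 in FID against IS (4.62% of all genes), where edgeR's quasi-likelihood test was used. Lypd6 was the 1 gene of 14 in FIDch against IS (-0.34; 6.12% of all genes) and of 15 in FIDch against FID (-0.34; 13.0%). The iron-by-choline term had Chrnb4 (-1.97) of 15 genes in males, against 14.4% of all genes, and Chrna5 (-0.72) of 18 in females, against 7.33%. Chat and the vesicular transporter Slc18a3 mark cholinergic cells, and Slc18a3 had 2 to 8 counts in the males and 2 to 16 in the females. It passed the filter in female FIDch against IS (0.60, SE 0.33, unadjusted p 0.0998 in edgeR) and in the female iron-by-choline term (1.25, SE 0.65, unadjusted p 0.0694), and in 0 of the male comparisons.

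Genes on the Gq side of the muscarinic receptors met the criterion most in the male iron-by-choline term, 5 of 8 lower and 0 higher, against 14.4% of all genes, with a list median of -0.30. They included the M-current subunit Kcnq3 (-0.64), the G protein Gnaq (-0.38) and the calcium release channel Itpr1 (-0.36), with adjusted p-values of 0.316, 0.233 and 0.243 in edgeR. Male IS replicate 1, which stood apart, was the lowest IS rat for each, at 31.9, 71.5 and 462 CPM. The IS medians were 65.6, 108 and 594 CPM. Values of this list without single libraries are not given. Single genes of the list met it in male ISch against IS (Itpr1, 0.25), female ISch against IS (Kcnq5, -0.32) and female FIDch against IS (Itpr1, -0.24). On the Gi side 2 of 8 were lower in the same male term, the potassium channel Kcnj3 (-0.39) and Gnai1 (-0.31), and 3 of 8 in the female one, against 7.33% of all genes, the cyclase Adcy1 (-0.51), Kcnj9 (-0.44) and Kcnj3 (-0.24). Adcy1 (0.38) and Kcnj9 (0.27) were higher in female ISch against IS and Kcnj9 (0.26) in female FID against IS. Over the 14 comparisons the Gq list had 9 calls in 5 and the Gi list 11 in 7, and not all are named here. The share of all genes at the criterion was 4.62% to 17.7% in these comparisons. In both sexes 0 of 8 genes of either list met the criterion in FIDch against FID, by edgeR's quasi-likelihood test, against 13.0% of all genes in males and 12.7% in females.

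Marker lists moved beside the members in female FIDch against FID, and their part in those results was not tested. The 4 dentate gyrus markers summed to 292, 276, 318 and 314 CPM in FIDch and 229, 231, 248 and 231 CPM in FID, higher in every FIDch rat. Prox1, the most abundant, rose (0.39, adjusted p 0.00559 in edgeR), as did Dsp (2.95, adjusted p 4.33e-05), and 2 of 4 were at the criterion, which 12.7% of all genes met in this comparison. Dsp was at 10.1 to 16.1 CPM in FIDch and 1.37 to 1.86 CPM in FID. It also varied within a group, at 1.07 to 11.5 CPM in male ISch. Thalamus markers summed to 36.5, 36.4, 37.7 and 45.2 CPM in FIDch and 49.7, 50.3, 49.2 and 56.6 CPM in FID, lower in every FIDch rat. Of these 2 of 6 were lower at the criterion, against 12.7% of all genes, Slc17a6, the most abundant, which fell (-0.71, adjusted p 0.0145), and Prkcd (-0.34), while Gbx2, a defining marker, had at most 3 counts in every library. CA1 markers, with Wfs1 the most abundant, summed to 413, 438, 273 and 706 CPM in FIDch and 501, 515, 559 and 528 CPM in FID, and 0 of 3 met the criterion by the quasi-likelihood test of edgeR. The highest of these sums belonged to FIDch replicate 4, the library with the lowest Chrna4, Chrna7, Chrnb2, Chrm2 and Chrm3 of its group.

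Interneuron markers summed to 890 to 1045 CPM in female FIDch and 910 to 1014 CPM in FID, with Gad2 the most abundant. Of 8 tested 2 were lower, against 12.7% of all genes at the criterion, Lhx6 (-0.60) and Slc32a1, which fell (-0.25, adjusted p 0.0425 in edgeR). Gad2 ran the other way, at 326 to 391 CPM in FIDch and 291 to 327 CPM in FID, with ranges that just overlapped. Astrocyte markers had 2 of 4 higher, against 12.7% of all genes at the criterion, Aldh1l1 (0.36, adjusted p 0.0346) and Aqp4 (0.30, adjusted p 0.0239), and sums of 2644 to 2784 CPM against 2432 to 2660 CPM, with Slc1a3 the most abundant. Among striatum markers, of which Ppp1r1b was the most abundant, Drd1 was lower (-0.42) and Penk higher (0.37, adjusted p 0.0333). Microglia markers summed to 175 to 185 CPM in FIDch and 195 to 215 CPM in FID, lower in every FIDch rat, with 1 of 5 at the criterion, against 12.7% of all genes (Cx3cr1, -0.32), and Csf1r the most abundant. Single genes met the criterion among the markers of medial habenula (Lrrc55, 0.41), choroid plexus (Ttr) and endothelial cells (Flt1, -0.25). Ttr was at 1.11 to 2.37 CPM in FIDch and at 2.12, 2.72, 14.5 and 3.79 CPM in FID, so the size of its difference depends on FID replicate 3. The lists of CA2 and CA3, excitatory neurons and oligodendrocytes had 0, of 4, 3 and 4 genes tested by edgeR's quasi-likelihood test.

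Markers also differed in the male comparisons that held calls of Chrm2, Chrna7 and Chrm4, and their part in those results was likewise not tested. In FID against IS the myelin gene Mbp was at 2554 to 3006 CPM in FID and 3085 to 3567 CPM in IS (-0.22), Cldn5 of endothelial cells at 41.7 to 45.5 CPM and 47.1 to 64.8 CPM (-0.29), and Ttr at 4.12 to 350 CPM and 0.883 to 2.41 CPM, each without overlap. Ppp1r1b (-0.25) and Aldh1l1 (-0.23) were at the criterion too, which 4.62% of all genes met. The adjusted p in edgeR was 0.786 for all these markers. In the same lists Drd1 had a higher mean in FID, at 6.99 CPM against 5.86 CPM, as had Aqp4, at 797 CPM against 753 CPM. Slc1a3 had a lower one, at 894 CPM against 1011 CPM. In FIDch against FID, Mbp was at 3076 to 3785 CPM in FIDch (0.29), above every FID rat, and so was Rgs14 of the CA2 and CA3 list, at 144 to 158 CPM against 124 to 133 CPM (0.23). Also at the criterion were Aqp4 (-0.27), Drd1 (-0.47), Vip (-0.27), Slc17a6 (-0.46), Lef1 (0.35), Cldn5 (0.23) and Ttr. The size of the Ttr differences depends on FID replicate 4, at 350 CPM. Among the markers at the criterion in FIDch against FID, the lowest adjusted p was 0.0683 in edgeR, for Rgs14.

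The dentate gyrus list was also higher in the other comparison of choline among the females, with sums of 306 to 347 CPM in ISch and 216 to 246 CPM in IS and 4 of 4 genes with an adjusted p under 0.05 in edgeR, against 2.54% of all genes. In female FIDch against IS, which held a call of Chrna4, the dentate gyrus sums were 275.9 to 318.5 CPM in FIDch, above every IS rat. Microglia sums were lower, at 175 to 185 CPM against 200 to 211 CPM, and choroid plexus sums at 3.76 to 5.976 CPM against 5.992 to 8.59 CPM. Their part in that call was not tested. In the males the dentate gyrus sums were 257, 220, 265 and 230 CPM in FID and 244, 227, 248.9 and 230 CPM in FIDch. In male FIDch against FID 0 of 4 were at the criterion, against 13.0% of all genes. Male FID replicate 4 carried choroid plexus markers at a summed 390 CPM, 350 CPM of it from Ttr, against 3.97 to 18.4 CPM in the other males, and its Chrna7 and Chrm2 were 62.6 and 7.69 CPM, the latter the highest of its group. Over the 14 comparisons, at least 1 gene met the criterion in 0 for CA1 and excitatory neurons, 1 for cholinergic neurons (Slc5a7 itself), 4 for oligodendrocytes, 5 for CA2 and CA3, 6 for thalamus and microglia, 7 for choroid plexus and endothelial cells, 8 for medial habenula, 9 for dentate gyrus and interneurons, 10 for striatum and 11 for astrocytes. These lists had 2 to 8 genes tested and 4.62% to 17.7% of all genes met the criterion in a comparison, so the tallies give no order of the cell types.

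**Figure D4:**
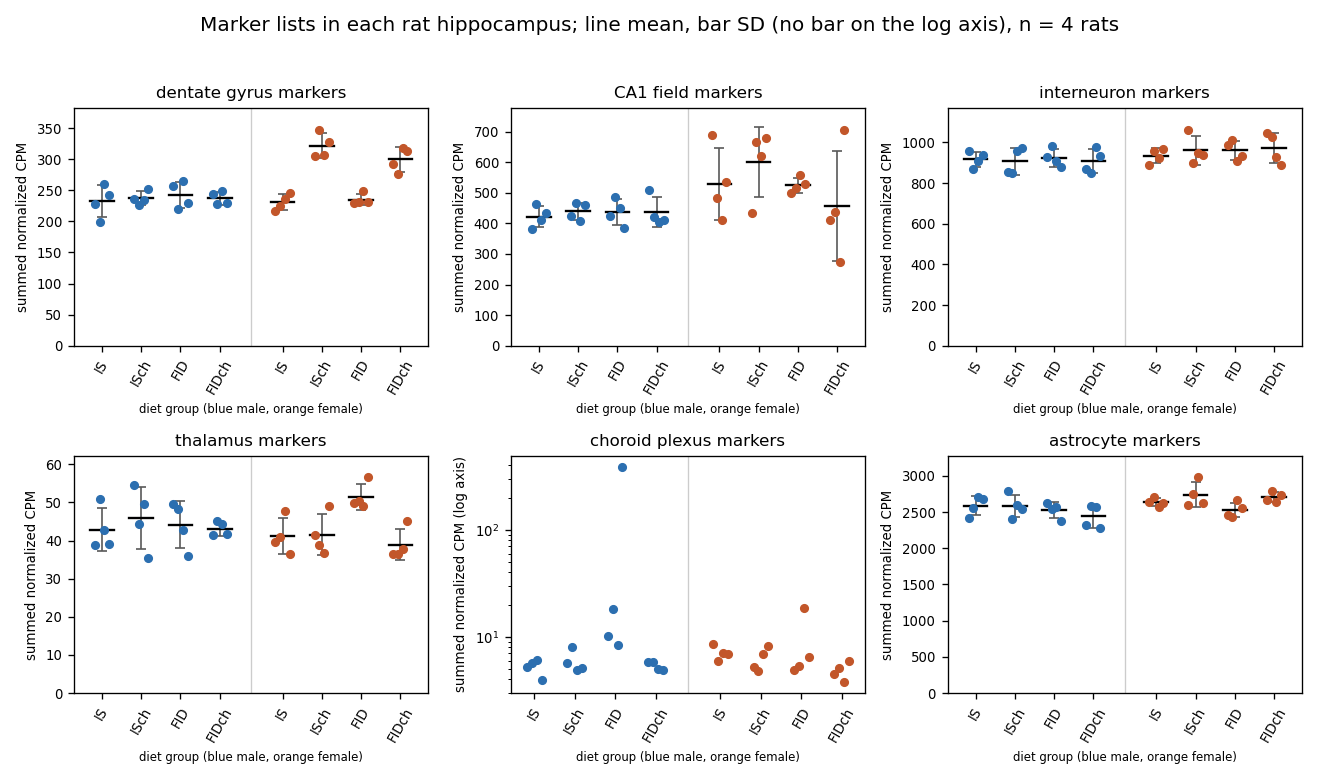
Summed normalized CPM of 6 marker lists (y axis, a log axis for choroid plexus) in each rat by diet group and sex (blue male, orange female), with the group mean as a line and the SD as a bar except on the log axis, n = 4 rats. Dentate gyrus sums are 276 to 318 CPM in female FIDch and 229 to 248 CPM in female FID, and male FID replicate 4 stands at 390 CPM of choroid plexus markers.

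Genes whose pattern over the 32 libraries was most like each of the 9 were found by Pearson's r of log2 CPM centred within each sex, as a description over libraries that share their groups and dissections. Chrna4 was most like Kcnf1, Adgra1 and Fstl1, with r of 0.874, 0.866 and 0.844, and the values within the females were 0.904, 0.924 and 0.971 against 0.691, 0.528 and 0.628 within the males. Chrnb2 was most like Bace1 (0.875), Spock2 (0.847) and Nipal3 (0.843), and Chrna7 like Gda (0.864), Prkacb (0.839) and Gabra2 (0.825). For the muscarinic receptors they were Cx3cl1 (0.774), Ncdn and Jph4 for Chrm1, Lpgat1 (0.866), Klf7 and Cntn1 for Chrm2, Luzp1 (0.702), Atp2a2 and Cyfip2 for Chrm3, and Men1 (0.667), Midn and Rasal1 for Chrm4. Slc5a7 was most like Elp2 (0.63), Pcid2 and Sfxn1, and Ache like F8a1 (0.723), Ttc7b and Pgam1. Spearman's rho was 0.825 for Kcnf1 with Chrna4 and 0.418 for F8a1 with Ache. For Chrm3, Ache and Slc5a7, 0 of the 3 genes were among the 3 most alike by rho. For Chrm1, Chrm3 and Chrm4, 0 were among the 3 most alike within either sex alone. The genes named for Ache had r of 0.466, 0.32 and 0.272 within the females and 0.826, 0.905 and 0.877 within the males.

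In RefSeq's annotation of GRCr8, Chrm1, Chrna7, Chrnb2 and Slc5a7 overlapped no other gene, while Chrm4 overlapped Mdk, Chrna4 Col20a1 and Ache Ufsp1. Chrm2 overlapped Mir490, which had 0 CPM in both sexes, and Chrm2, Chrm3 and Ache each overlapped an entry with a placeholder symbol. Whether the counting used the strand is not stated, so reads from an overlapping gene cannot be set apart. These neighbours were looked up after the values were seen. In female FIDch against FID, Col20a1 was at 0.34 (SE 0.12, adjusted p 0.173 in edgeR), opposite in sign to Chrna4. Mdk was at 0.15 in male FIDch against FID and -0.09 in the females, with unadjusted p-values of 0.41 and 0.54 in edgeR.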

How the data were processed

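Gene-level RNA was measured in 32 rat hippocampi. The authors trimmed reads with Trimmomatic, aligned them with HISAT2 to Rnor_6.0 and used featureCounts to count them; a table of raw counts per gene was deposited for each sex. The table columns were matched to samples by name, with 0 left over, and 2799 gene entries share their symbol with another, none of the 9 among them.

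Fits used edgeR 4.0.16 under R 4.3.3 (filterByExpr, TMM, glmQLFit and glmQLFTest), each pair of diet groups apart and within a sex. The iron-by-choline term used the 16 libraries of a sex, and the sex-by-diet term the 16 libraries of both sexes concerned. The fits were tested on simulated data. Set against pure counting noise, the chi-square per gene was 2.02 to 25.2 over 48 replicate pairs. The highest values, 22.4, 24.3 and 25.2, were those of the pairs with female FIDch replicate 4. The next was 14.3, for female ISch replicates 1 and 2. The members and lists were chosen with earlier results of these data known.

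Genes are named by a rule: the 9 members, for each the 3 most alike genes with a mean of at least 5 CPM in each sex (log2 of CPM plus 0.5), of each list at most the 3 largest fold changes at the criterion per comparison, and each marker list's most abundant gene. Placeholder symbols were left out of the likeness search, which left 10382 or 10383 candidates. The 17 lists cover other cholinergic genes, Gq-side and Gi-side effectors, CA1, CA2 and CA3, dentate gyrus, excitatory neuron, interneuron, cholinergic neuron, medial habenula, thalamus, striatum, choroid plexus, astrocyte, oligodendrocyte, microglia and endothelial cell. Chrng and Pecam1 have no entry. The results of 2 genes that fall under the naming rule are not reported.

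The alternatives tried were each library left out in turn, DESeq2 1.42.0 within a sex, a likelihood ratio test in edgeR, one fit for the 4 groups of a sex, a block for the replicate number, library size alone or RLE as size factors, a filter that keeps every gene with 1 count or more, and the criterion without its fold limit. After seeing the data, libraries whose names have another form, and female ISch replicate 1 with FIDch replicate 4, were also left out.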

Additional observations from a re-analysis of the deposited data

Results flagged for a closer look

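In 5 of 80 groups of 4 rats checked, for the 9 genes and the totals, 1 rat lay far from the other 3, and chance alone gives about 1 in 20. Chrna7 was 43.1 CPM in male IS replicate 1, with the other 3 at 58.7 to 60.2 CPM. Ache was 50.3 CPM in the same rat, with the others at 48.0 to 48.3 CPM. Slc5a7 was 5.79 CPM in male ISch replicate 4, with the others at 1.38 to 1.66 CPM. Chrm1 was 145 CPM in male FIDch replicate 1, with the others at 133 to 135 CPM, and Ache was 39.5 CPM in male FIDch replicate 2, the smallest library, with the others at 48.0 to 48.7 CPM.

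The effect of FIDch against FID differed between the sexes in edgeR's sex-by-diet term for Chrm4, by -0.52 on the log2 scale, and for Chrna4, by -0.73, each with an adjusted p of 0.03. The range of the adjusted p over the alternatives was 0.008 to 0.0809 for Chrm4 and 0.00569 to 0.0716 for Chrna4. Sex and sequencing batch cannot be told apart.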

How the results depend on the processing

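Of 254 alternative counts of the 9 genes at the criterion, 188 stayed within 1.5 times the count reported and 66 did not. Of 24 calls of single genes, 24 kept their sign in every alternative and 10 met the criterion in every fit that left out a library. Group means of CPM stayed within 1 SD in 72 of 72 cases under RLE size factors and under library size alone, with a largest shift of 1.19%. The cause of the moves below was not tested. Male ISch against IS gave 1 in place of 0 under library size alone, with all genes of at least 1 count, and with the 4 groups in one fit. Male FID against IS gave 1 in place of 2 by DESeq2. Male FIDch against IS gave 1 in place of 0 by the likelihood ratio test and with all genes of at least 1 count. Female ISch against IS gave 0 in place of 1 with the 4 groups in one fit. Female FID against IS gave 1 in place of 0 by DESeq2 and with all genes of at least 1 count. Female FIDch against IS gave 2 in place of 1 with no limit on the fold change. The female iron-by-choline term gave 0 in place of 1 under library size alone, and 3 without ISch replicate 1 and FIDch replicate 4, a fit chosen after seeing the data. The sex difference in ISch against IS gave 2 in place of 1 under RLE size factors and with all genes of at least 1 count.

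With the replicate number as a block, male ISch against IS gave 1 and female ISch against IS gave 0. The numbers do not pair the rats: same-number libraries of different groups had correlations of -0.15 to 0.22 in males and -0.13 to 0.15 in females, with medians of -0.01, and 5 of 16 libraries of each sex were most like one of their own number.

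Leaving out 1 library at a time, the male counts were 0 to 2 for ISch against IS, 0 to 2 for FID against IS, 0 to 2 for FIDch against IS, 2 to 4 for FIDch against FID and 2 to 3 for the iron-by-choline term. The female counts were 0 to 2, 0 to 1, 1 to 3, 2 to 4 and 0 to 2 in the same order. The sex differences gave 1 to 3 for ISch against IS, 0 to 1 for FID against IS, 0 to 4 for FIDch against IS and 3 to 5 for FIDch against FID. Depth limits Slc5a7 and Chrm2 most, at 8 to 57 and 17 to 72 counts per male library.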
